A study of Rattus norvegicus with 64 samples.

Results

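Fos (ENSRNOG00000008015), Egr1 (ENSRNOG00000019422), Arc (ENSRNOG00000043465), Nr4a1 (ENSRNOG00000007607), Junb (ENSRNOG00000042838), Egr2 (ENSRNOG00000000640) and Bdnf (ENSRNOG00000047466) are genes that neurons transcribe in response to activity. They were taken by Ensembl ID, as 7 of the 32623 gene IDs in each of 2 tables of bulk RNA-Seq read counts, one for the dorsal hippocampus (HPCd) and one for the nucleus accumbens (ACB). Tissue punches of both regions came from the same 32 Sprague Dawley rats at postnatal day 80. ACE-K rats had drunk acesulfame potassium, a low-calorie sweetener, at 15 mg/kg a day from a sipper since the juvenile period, and control rats (CTL) had a sipper of reverse osmosis water, with 8 rats for each sex and treatment. All rats were housed singly on standard chow, lost chow and sippers early in the light cycle on the day of collection, and were anesthetized with a mixture of ketamine, xylazine and acepromazine before decapitation, so that no group lacks the anesthesia. The estrous cycle was not tracked. Males were rats C91 to C106 and females were rats C107 to C122, so sex and the range of rat numbers cannot be told apart. Odd rat numbers were CTL and even numbers ACE-K.

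In neurons, synaptic activity raises calcium, and kinases then switch on a first wave of genes within minutes without new protein synthesis, through factors such as CREB and the serum response factor that already sit at their promoters. Most of these immediate early genes encode transcription factors, Arc encodes a protein that acts at synapses, and Bdnf encodes a secreted neurotrophin with a slower, partly activity-dependent transcription from several promoters. Their transcripts in the hippocampus are widely read as a trace of what an animal experienced shortly before death.

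Libraries of the HPCd held 14304052 to 28292936 counts on genes (median 20509054) and those of the ACB 255545 to 416869 (median 331011), a 62-fold lower median. All 7 genes were therefore tested in the HPCd and 3 (Egr1, Arc and Junb) in the ACB, where the others did not reach a normalized count of 5 in at least 3 rats. The ACB counts lie far below the reads per sample that the study's methods give, and the reason is not stated in the sources used here. Levels are counts scaled to a common library size (CPM), which are not corrected for transcript length and so are not compared between genes. Markers that would identify cell types in the punches were not analysed here, because the tables do not pair IDs with symbols. In bulk tissue, fewer cells of a type and less RNA per cell cannot be told apart.

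In the HPCd, the levels of the 6 immediate early genes differed widely between rats, whereas those of Bdnf differed less over the 32 rats. Not every group showed this: in female CTL rats the SD was 20.4% of the mean for Bdnf and 19.9% for Junb. Egr2, a zinc finger transcription factor, ranged from 0.705 CPM in C97 to 10.4 CPM in C92, a 14.7-fold range over the 32 rats. Arc ranged from 48.4 to 200.5 CPM, Nr4a1, an orphan nuclear receptor, from 32.5 to 126 CPM, and Fos, a subunit of the AP-1 transcription factor, from 8.17 to 28.5 CPM. The ranges of Egr1, a zinc finger factor related to Egr2, and of Junb, which pairs with Fos in AP-1, were narrower, from 120.5 to 317 CPM and from 38.0 to 99.1 CPM. Bdnf lay between 27.6 and 49.5 CPM, a 1.79-fold range.

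The biological coefficient of variation, edgeR's estimate of the spread between rats of a group beyond counting error, ordered the genes as the ranges over all rats did. It was 62.2% for Egr2, which exceeded the value of 97.8% of the 16012 genes tested. It was 32.9% for Arc, 31.2% for Nr4a1, 28.2% for Fos, 24.8% for Egr1 and 21.8% for Junb. Bdnf had 15.4%, still above the median of 9.57% over all genes. Egr2 was also the gene with the fewest counts, 12 to 281 per rat, but its estimate had counting error removed.

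**Figure D1:**
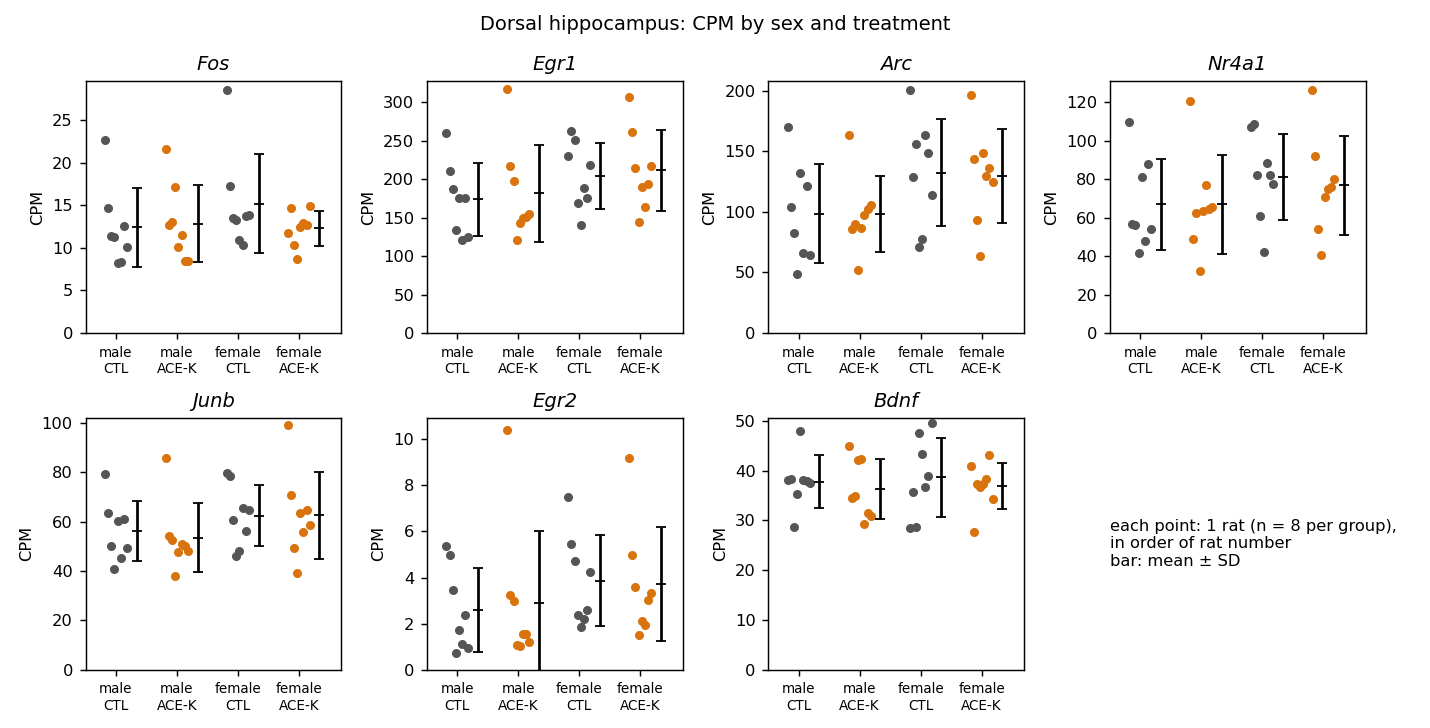
CPM of the 7 genes in the HPCd (y axes, each starting at 0) in the 4 groups of 8 rats; each point is 1 rat, placed in order of rat number within its group, and the bar beside it is the mean ± SD. The ACE-K and CTL points overlap in every panel, and single rats stand high, such as C92 at 10.4 CPM of Egr2 among male ACE-K rats.

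For ACE-K against CTL, none of the 7 genes was called in either sex in the HPCd. Beginning with Egr2, male CTL rats had 0.705 to 5.36 CPM (median 2.05, mean 2.59 ± 1.83 SD, n = 8) and male ACE-K rats 1.04 to 10.4 CPM (median 1.55, mean 2.88 ± 3.16 SD, n = 8). In females the corresponding values were 1.84 to 7.51 CPM (median 3.42) and 1.51 to 9.19 CPM (median 3.18). The groups overlapped almost completely in both sexes. The log2 fold change, positive where ACE-K rats were higher, was 0.19 ± 0.52 (SE) in males and -0.05 ± 0.35 in females, with edgeR adjusted p of 0.995 and 1. Leaving out 1 rat at a time moved the estimate in males between -0.498 and 0.429, so its sign rested on single rats.

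Fos was the gene with the largest difference among females. Female CTL rats ranged from 10.3 to 28.5 CPM (median 13.6) and female ACE-K rats from 8.66 to 14.9 CPM (median 12.6). The CTL rats C107 (28.5 CPM) and C109 (17.3 CPM) lay above every ACE-K rat, and the other CTL rats overlapped them. The log2 fold change was -0.30 ± 0.17 (95% interval -0.65 to 0.06) with an unadjusted edgeR p of 0.0995 and an adjusted p of 0.989. Without C107 the log2 fold change was -0.114. In males it was 0.06 ± 0.22, between CTL rats at 8.17 to 22.6 CPM (median 11.3) and ACE-K rats at 8.40 to 21.6 CPM (median 12.1).

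Egr1 in males lay at 120.8 to 260 CPM in CTL rats (median 175) and at 120.5 to 317 CPM in ACE-K rats (median 153). In females it lay at 140 to 262 CPM (median 204) and at 144 to 307 CPM (median 204). Medians and ranges of the 2 treatments were thus close in females and overlapped in males. The log2 fold changes were 0.07 ± 0.19 in males and 0.05 ± 0.15 in females. In males, leaving out 1 rat at a time moved it between -0.0952 and 0.171.

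Arc, whose protein governs AMPA receptor traffic at synapses, lay in males at 48.4 to 170 CPM in CTL rats (median 93.3) and at 52.1 to 164 CPM in ACE-K rats (median 93.8). In females it lay at 70.8 to 200.5 CPM (median 139) and at 63.9 to 196 CPM (median 133). The log2 fold changes of -0.01 ± 0.24 and -0.03 ± 0.21 are small beside their errors.

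The fold changes of Nr4a1 were 0.00 ± 0.23 in males and -0.08 ± 0.20 in females, and those of Junb -0.07 ± 0.15 and 0.01 ± 0.15, all on the log2 scale. For Bdnf, male CTL rats ranged from 28.7 to 48.0 CPM (median 37.9) and male ACE-K rats from 29.3 to 44.9 CPM (median 34.7). Female CTL rats ranged from 28.5 to 49.5 CPM (median 37.9) and female ACE-K rats from 27.6 to 43.2 CPM (median 37.3). The groups again overlapped, with log2 fold changes of -0.05 ± 0.10 and -0.07 ± 0.11. The 95% intervals for Bdnf, -0.27 to 0.16 and -0.30 to 0.17, were the narrowest of the 7 in each sex, and those for Egr2 the widest, from -0.90 to 1.28 in males.

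Over all genes, edgeR called 0 of 15704 genes in males and 0 of 15651 in females at an adjusted p under 0.05 (0% in both), and DESeq2 also called 0 in each. At an unadjusted p under 0.05, edgeR had 785 and 635 genes and DESeq2 767 and 630, with none of the 7 genes among them in edgeR. With a log2 fold change of at least 0.4 besides, the shares over all genes were 1.34% in males and 1.32% in females, against 0 of 7 in both. The median log2 fold change of the 7 genes was 0.00 in males and -0.05 in females, beside 0.01 and 0.00 over all genes.

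No difference between the sexes in the effect of ACE-K was called for any of the 7 genes, in an interaction test for which edgeR called 0 of 16012 genes (0%; 1374 at an unadjusted p under 0.05) and DESeq2 also 0. The largest difference between the effects, female minus male, was -0.35 ± 0.29 on the log2 scale for Fos, with an unadjusted p of 0.236. Among CTL rats, all 7 mean levels were higher in females than in males, by 0.03 ± 0.11 on the log2 scale for Bdnf to 0.58 ± 0.47 for Egr2. None of these differences was called, in a comparison that called 0.144% of all genes. The smallest unadjusted p was 0.0860 for Arc, whose CTL mean was 132 CPM in females and 98.7 CPM in males.

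**Figure D2:**
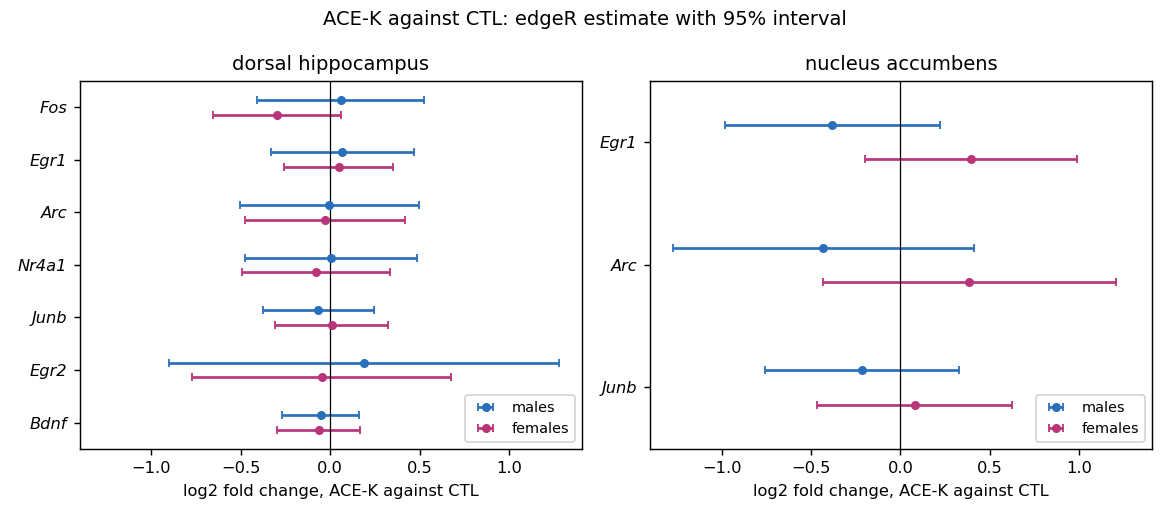
Log2 fold change of ACE-K against CTL rats (x axes) with its 95% interval from edgeR, for 7 genes in the HPCd and the 3 genes tested in the ACB; blue points are males and pink points females, 8 rats per treatment. Every interval includes 0, and those of Bdnf in the HPCd are the narrowest.

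The spread between rats was compared as well, since treatment could alter variability without a change in the mean. The measure was the mean absolute deviation of log2 CPM from the group median, tested by a 2-sided exact permutation test over all assignments of the 16 rats to 2 groups of 8. None of the 14 comparisons had a p under 0.05. The largest difference was for Arc in males, with a deviation of 0.289 in ACE-K and 0.507 in CTL rats (exact permutation p = 0.162). For Bdnf in females the deviations were 0.120 and 0.236 (exact permutation p = 0.158).

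The same rats were high or low for most of the 6 immediate early genes. Among the 16 males, C91 and C92 were within the 4 highest rats for all 6 genes, with mean ranks of 1.67 and 1.33 (rank 1 is the highest). C97, C98 and C101 were within the 4 lowest for 5 of the 6, although C98 was within the 4 highest for Fos, at 17.1 CPM. Among the 16 females, C107, C108, C109 and C110 were each within the 4 highest for 5 of 6 genes, and C114 and C115 were within the 4 lowest for all 6.

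Across rats, log2 CPM values centred on the treatment means correlated in 13 of 21 gene pairs in males and in 13 of 21 in females, by Pearson's r with a permutation p adjusted over the 42 relations. All of these pairs were among the 15 that exclude Bdnf. What share of pairs of other genes would pass was not analysed here, so the counts cannot be called particular to these genes. By Spearman's rho the counts were 9 and 11. Egr1-Egr2, factors with closely related DNA-binding domains, had the highest r of these in both sexes, with r = 0.954 (permutation p = 2e-05, adjusted p = 0.000168) and rho = 0.926 (p = 2e-05) in males and r = 0.933 (permutation p = 1e-05, the smallest that 100000 resamples can give, adjusted p = 0.000105) and rho = 0.938 (p = 1e-05) in females. Arc-Nr4a1 had r = 0.934 and 0.884 (permutation p = 1e-05 in both) and rho = 0.921 (p = 1e-05) and 0.726 (p = 0.00291). Nr4a1-Junb had r = 0.880 (permutation p = 0.0002) and 0.929 (p = 1e-05), with rho = 0.788 (p = 0.00141) and 0.859 (p = 0.0001).

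Fos was the loosest of the 6. Its r with Arc and Nr4a1 in males was 0.329 and 0.313 (permutation p = 0.232 and 0.254), whereas with Egr2 it was 0.693 in males and 0.621 in females (permutation p = 0.004 and 0.00676, adjusted p = 0.00988 and 0.0149). Bdnf did not pass in any of its 12 relations. Its r with the other genes was 0.125 to 0.291 in males and -0.490 to -0.270 in females.

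The covariation was also computed without the most extreme rats. Leaving them out keeps 14 rats and narrows the range of the first gene, which can itself lower r and the number of pairs that pass. A fall in that number therefore cannot show that the covariation rested on those rats. Without the 2 rats farthest from the median of the first gene of each pair, which were C91 and C92 in males for every pair led by Fos or Egr1, the pairs with an adjusted p under 0.05 fell to 6 in males and 8 in females by Pearson's r, and to 5 and 2 by Spearman's rho. Egr1-Egr2 passed by both measures, with r = 0.912 in males and 0.896 in females. Arc-Nr4a1 with r = 0.920 and 0.866 and Nr4a1-Junb with r = 0.793 and 0.944 passed by Pearson's r in both sexes, but by Spearman's rho Nr4a1-Junb in males (adjusted p = 0.124, permutation test) and Arc-Nr4a1 in females (adjusted p = 0.052, permutation test) did not. In this setting Arc-Nr4a1 in males and Nr4a1-Junb in females had a higher r than Egr1-Egr2. No pair with Fos passed the threshold in either sex, and in males Fos-Nr4a1 changed to r = -0.412.

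Rat number, described further on, was shared by some of these genes. With a linear trend on rat number removed from each gene, a setting added after the values were seen, 10 pairs in males and 11 in females had an adjusted p under 0.05 by Pearson's r, and 10 and 8 by Spearman's rho. In males, Fos-Egr2 went from r = 0.693 to 0.299 (adjusted p = 0.409 by permutation) and Fos-Egr1 from 0.652 to 0.203 (adjusted p = 0.572 by permutation). Arc-Nr4a1 (r = 0.937), Nr4a1-Junb (0.936), Arc-Junb (0.934) and Egr1-Junb (0.923) then stood above Egr1-Egr2 (0.899) in males. In females Nr4a1-Junb, at 0.925, stood above Egr1-Egr2, at 0.911.

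**Figure D3:**
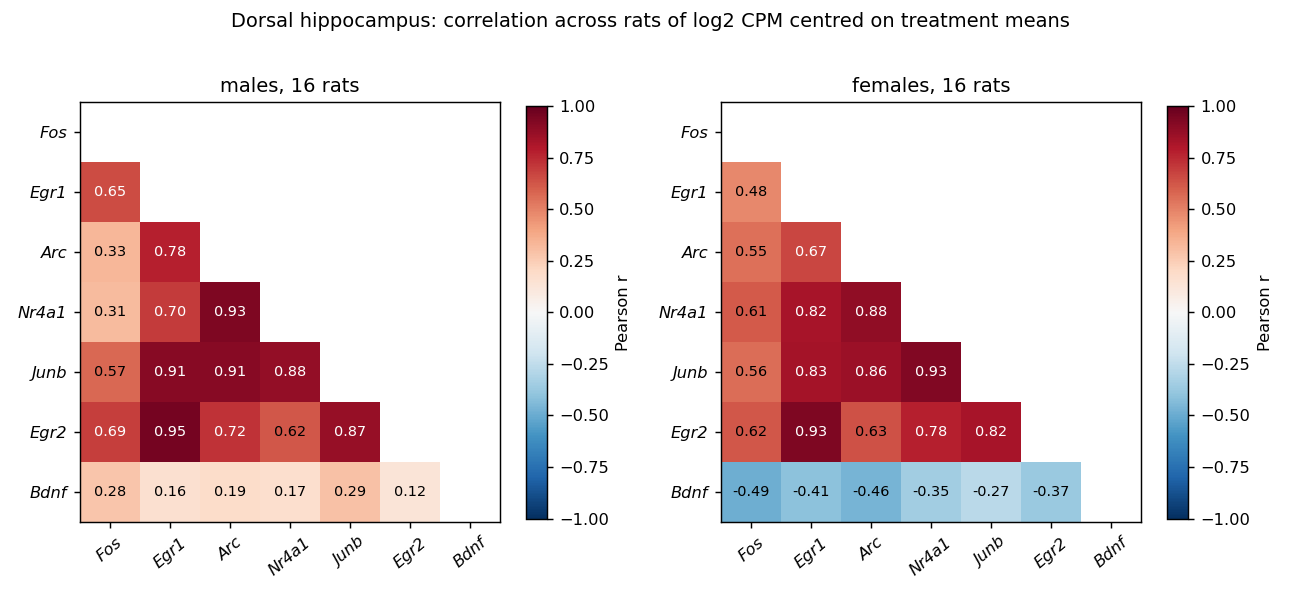
Pearson's r across the 16 males (left) and 16 females (right) for each pair of the 7 genes in the HPCd, from log2 CPM centred on the treatment means; red is positive and blue negative. Egr1-Egr2 reaches 0.95 and 0.93, the Fos column is paler in males, and the Bdnf row is pale, at most 0.291, for males and blue, down to -0.490, for females.

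Promoters of these genes were read for the sequence elements through which activity reaches immediate early genes. RefSeq start sites on the GRCr8 assembly, matched by symbol, gave windows for 5 of the 7 genes (1 window each for Egr1, Nr4a1, Junb and Egr2, and 6 for Bdnf). The 250 bases before each start are given 5′ to 3′ on the strand of the gene for the 4 immediate early genes. Capitals mark, on either strand, CArG boxes, the binding element of the serum response factor, and CRE cores (TGACG, the opening letters of the CREB element).
Egr1, chr18:26736828-26737077, plus strand: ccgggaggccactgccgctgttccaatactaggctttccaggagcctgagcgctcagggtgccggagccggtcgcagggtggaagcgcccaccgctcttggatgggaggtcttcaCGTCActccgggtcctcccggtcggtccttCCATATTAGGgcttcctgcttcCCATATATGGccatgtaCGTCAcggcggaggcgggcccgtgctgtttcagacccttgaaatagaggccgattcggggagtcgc
Egr2, chr20:21054442-21054691, minus strand: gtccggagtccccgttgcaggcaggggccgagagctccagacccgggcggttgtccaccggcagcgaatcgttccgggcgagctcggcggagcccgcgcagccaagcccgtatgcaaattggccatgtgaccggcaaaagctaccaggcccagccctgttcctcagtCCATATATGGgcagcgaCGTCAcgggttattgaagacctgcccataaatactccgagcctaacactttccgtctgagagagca
Nr4a1, chr7:134259888-134260137, plus strand: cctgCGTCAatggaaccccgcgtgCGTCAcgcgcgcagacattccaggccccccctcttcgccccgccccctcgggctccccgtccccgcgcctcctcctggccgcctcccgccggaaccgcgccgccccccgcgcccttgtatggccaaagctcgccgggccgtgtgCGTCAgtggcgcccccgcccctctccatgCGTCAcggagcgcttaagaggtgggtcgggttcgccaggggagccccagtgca
Junb, chr19:40080876-40081125, plus strand: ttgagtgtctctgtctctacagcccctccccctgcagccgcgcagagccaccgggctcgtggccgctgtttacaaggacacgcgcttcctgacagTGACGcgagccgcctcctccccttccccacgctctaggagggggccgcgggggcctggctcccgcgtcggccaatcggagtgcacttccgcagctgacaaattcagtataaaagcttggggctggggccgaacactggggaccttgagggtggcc

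Egr1 and Egr2 both held the same CArG box, CCATATATGG, at 74 to 83 bases before the start and a CRE core at 62 to 66 bases before it. Egr1 held a second CArG box, CCATATTAGG, whose nearer end lay 96 bases before the start. Nr4a1 held 4 CRE cores and no CArG box, and Junb held 1 CRE core and a TATA box (TATAAA) at 44 to 49 bases before its start. Of the 6 Bdnf windows, 1 (chr3:116637608-116637857) held a CRE core, at 31 to 35 bases, and none held a CArG box. No window held the full CRE (TGACGTCA), which contains the core. Among 33465 RefSeq promoter windows of the same 250 bases, 1.5% held a CArG box, 1.59% the full CRE, 18.2% a CRE core and 12.9% the TATA letters. These are matches of letters in one window per start, and no binding was measured. Whether these elements bear on the covariation between rats was not tested.

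In males, Fos, Egr1 and Egr2 were lower at higher rat numbers by a correlation that passed adjustment over 14 relations, although edgeR's adjusted p did not pass. In females no gene passed adjustment. The labels do not say what the rat number orders. In males, Egr2 was 5.36, 10.4, 4.98 and 3.24 CPM in C91 to C94 and between 0.705 and 3.48 CPM in the 12 later rats. In edgeR with treatment in the model, it fell by 1.80 ± 0.33 (SE) on the log2 scale per 10 rat numbers, with the smallest p of the 15704 genes tested (4.77e-05, n = 16) but an adjusted p of 0.426. Fos fell by 0.75 ± 0.15 per 10 rat numbers (unadjusted p = 0.000154, the third smallest, n = 16) and Egr1 by 0.64 ± 0.13 (unadjusted p = 0.000162, the fourth), both with an adjusted p of 0.636. Junb fell by 0.36 ± 0.13 (unadjusted p = 0.0144, adjusted p = 0.997, n = 16). Arc, Nr4a1 and Bdnf had estimates of -0.34 ± 0.24, -0.26 ± 0.23 and -0.12 ± 0.11.

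Thus 4 of 7 genes in males were lower at higher rat numbers at an unadjusted p under 0.05, where 1.71% of all genes were (1.82% were higher). These 4 genes covaried across the same rats, as with r = 0.954 for Egr1-Egr2, so they are not 4 separate observations. At an adjusted p under 0.05 edgeR called 0 genes (0%; 555 at an unadjusted p under 0.05). DESeq2's Wald test called 4 of the genes tested (545 at an unadjusted p under 0.05), and 3 of those 4 were Egr2, Egr1 and Fos, with adjusted p of 0.0111, 0.0203 and 0.0203. By permutation of rats within treatment, the correlation with rat number was r = -0.761 for Fos (permutation p = 0.00104, rho = -0.751 with p = 0.00209), -0.741 for Egr1 (permutation p = 0.00157, rho = -0.669 with p = 0.00856) and -0.738 for Egr2 (permutation p = 0.00187, rho = -0.686 with p = 0.00634). Without C91 and C106, the ends of the range, r was -0.643, -0.709 and -0.686. Of the 14 relations with rat number, 7 genes in each sex, these were the 3 strongest and the only ones with an adjusted p under 0.05 (0.00873 for each by Pearson's r, permutation test). In females the lowest adjusted p was 0.0881, for Egr2 (permutation test).

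In females, Egr2 was 7.51, 9.19, 5.45 and 4.96 CPM in C107 to C110 and between 1.51 and 4.70 CPM in the 12 later rats, so that the first 4 lay above all others. The cut after 4 rats was chosen after the values were seen, and no test was made of it. The same separation held for Nr4a1 (91.98 to 126 against 40.5 to 88.7 CPM) and Junb (70.8 to 99.1 against 39.4 to 65.5 CPM). Per 10 rat numbers, Egr2 fell by 0.95 ± 0.28 on the log2 scale (edgeR unadjusted p = 0.00307, adjusted p = 0.381, n = 16) and Egr1 by 0.34 ± 0.13 (unadjusted p = 0.0207, adjusted p = 0.419). Bdnf went the other way, with a change of 0.25 ± 0.11 (unadjusted p = 0.0380, adjusted p = 0.448, n = 16).

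Those were 2 of 7 genes lower and 1 of 7 higher at an unadjusted p under 0.05, beside 5.53% and 5.14% of all genes. The 2 lower genes, Egr2 and Egr1, covaried with r = 0.933 and are not separate observations either. At an adjusted p under 0.05 edgeR called 0 genes (0%; 1670 at an unadjusted p under 0.05), whereas DESeq2 called 19, none of them among the 7 (Egr2 had no adjusted p there). The levels did not go down throughout: each of the 6 immediate early genes was lowest in C114 or C115, and all 6 were higher in C121 and C122 than in both of those rats.

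The first rats carried much of these slopes. Without C91 and C92, the slopes in males were -1.28 for Egr2 (edgeR unadjusted p = 0.00423, n = 14), -0.47 for Fos (p = 0.0165) and -0.42 for Egr1 (p = 0.0114), Junb was at -0.07 (p = 0.604), and Arc and Nr4a1 turned to 0.15 and 0.35. Without C107 and C108, no gene in females was lower at an unadjusted p under 0.05, with Egr2 at -0.48 (p = 0.138, n = 14), and Arc turned to 0.13. The library number in the column names of the HPCd table was unrelated to rat number (r = -0.0965 in males and 0.0274 in females, as a description), and with it as a covariate the slope of Egr2 was -1.73 in males and -0.94 in females.

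**Figure D4:**
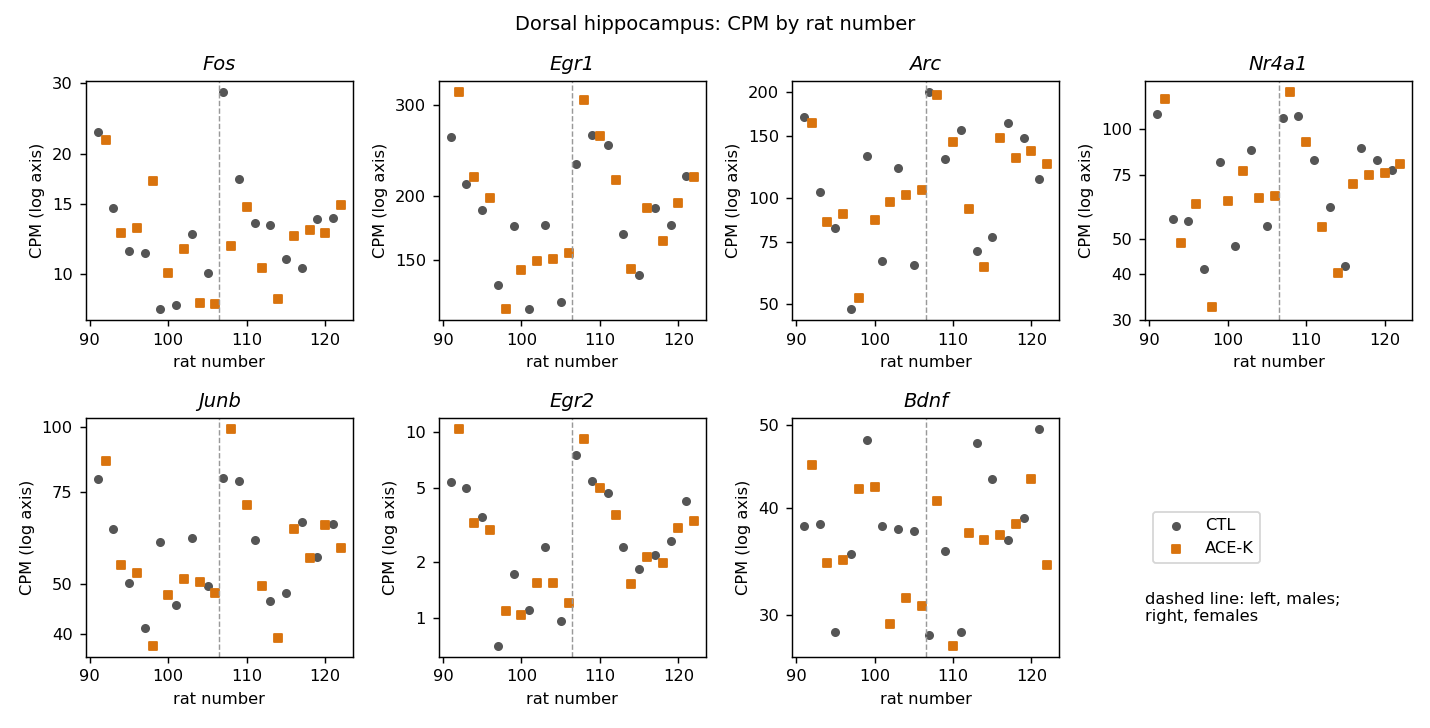
CPM of the 7 genes in the HPCd (y axes, log scale) against rat number (x axes); grey circles are CTL and orange squares ACE-K rats, and the dashed line separates males (left) from females (right). Egr2 is at 10.4 CPM in C92 and at 0.705 CPM in C97, and rises again to 7.51 CPM at C107, the first female.

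For Egr2, neighbouring rats, which were of different treatments, had related levels in both sexes. Each CTL rat was set against the ACE-K rat of the next number, giving 8 pairs in each sex, a comparison added after the values were seen. The pairs were not compared with the trend on rat number removed, so this relation cannot be told apart from the slopes above. For Egr2 the correlation of log2 CPM over the pairs was r = 0.831 in males (exact permutation p = 0.00355, rho = 0.810 with exact p = 0.0218) and 0.912 in females (exact permutation p = 0.000843, rho = 0.905 with exact p = 0.00456). These values exceeded those of 98.4% and 99.8% of genes, whose medians were 0.232 and 0.00449. Without the 2 pairs whose CTL rat lay farthest from the median, r for Egr2 was 0.838 and 0.879.

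Egr1 had r = 0.834 in males (exact permutation p = 0.00885) and 0.666 in females (exact p = 0.0728), and Junb 0.825 (exact p = 0.00980) and 0.701 (exact p = 0.0501). Adjusted over the 14 relations, Egr2 in both sexes (0.0249 and 0.0118) and Egr1 and Junb in males (both 0.0343) were under 0.05 by Pearson's r, and none was by Spearman's rho (lowest 0.0638). Without the 2 farthest pairs, r in males was 0.729 for Egr1, 0.117 for Junb and -0.495 for Arc, which had 0.698 with all pairs. Bdnf had r = 0.232 and -0.158, and Fos 0.645 in males but 0.0368 in females.

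The pair of neighbouring rats was then entered as a block in the comparison of ACE-K with CTL. The errors of all 7 genes shrank, and none of the 7 genes was called. The errors also shrank in females for Fos (0.171 to 0.147) and Bdnf (0.111 to 0.108), whose neighbouring rats had r = 0.0368 and -0.158. How the errors changed over all genes was not analysed here. For Egr2 the log2 fold change became 0.02 ± 0.20 (SE) in males and -0.11 ± 0.12 in females, with 95% intervals of -0.43 to 0.47 and -0.37 to 0.14. For Egr1 it became 0.05 ± 0.07 and 0.04 ± 0.08, and for Junb -0.08 ± 0.06 and -0.02 ± 0.08. Fos in females remained the largest at -0.25 ± 0.15, with an edgeR p of 0.108 and an adjusted p of 0.980. At an unadjusted p under 0.05 this fit had 1114 genes in males and 492 in females, with none of the 7 among them, and 0 in each at an adjusted p under 0.05.

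The remaining recorded quantities of each rat or library were also related to the 7 genes in the HPCd. Of 56 relations with library number, total counts, the share of reads on no gene (20.3% to 24.3% of reads) and body weight, none passed after adjustment over the 56 (lowest adjusted p = 0.781 for Pearson's r). The smallest unadjusted value was for Egr2 and body weight in males, at rho = -0.576 (permutation p = 0.0302) with r = -0.419 (permutation p = 0.119), and without the 2 farthest rats r was -0.474. Time of day of collection and order of dissection were not analysed here, and their part in the slopes was not tested.

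Other genes followed the 7 across all 32 rats, as a description with no test. The mean r of a gene with the 7, from log2 CPM centred on the 4 group means, was highest among 16005 other genes for ENSRNOG00000015719 (0.64; 15.1 to 31.5 CPM) and ENSRNOG00000014338 (0.61; 61.7 to 82.8 CPM), which the tables do not pair with symbols. It was lowest for ENSRNOG00000026775 and ENSRNOG00000031689 (-0.51 for both). Of the 7 genes themselves, Junb had the highest mean r with the other 6 (0.67), then Egr1 (0.63) and Egr2 (0.62), while Fos had 0.43 and Bdnf -0.09. All these values share the same libraries and depth.

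In the ACB the genes were counted in few reads. Junb had 4 to 20 counts per rat (median 12), Egr1 3 to 18 (median 7) and Arc 1 to 11 (median 3). Fos and Nr4a1 had 0 to 6 each and were at 0 in 6 and 8 of the 32 rats. Egr2 had 0 to 3 counts and was at 0 in 19 rats. Bdnf had 4 counts in all, 1 in each of C91, C102, C107 and C122, and was at 0 in the other 28 rats, which at the median depth allows up to 9.06 CPM in any one of them. Summed over the 32 libraries, Bdnf stood at 0.374 CPM in the ACB beside a mean of 37.4 CPM in the HPCd, in tables that were normalized separately and were not tested against each other. Intervals and limits of this kind cover counting error only.

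**Figure D5:**
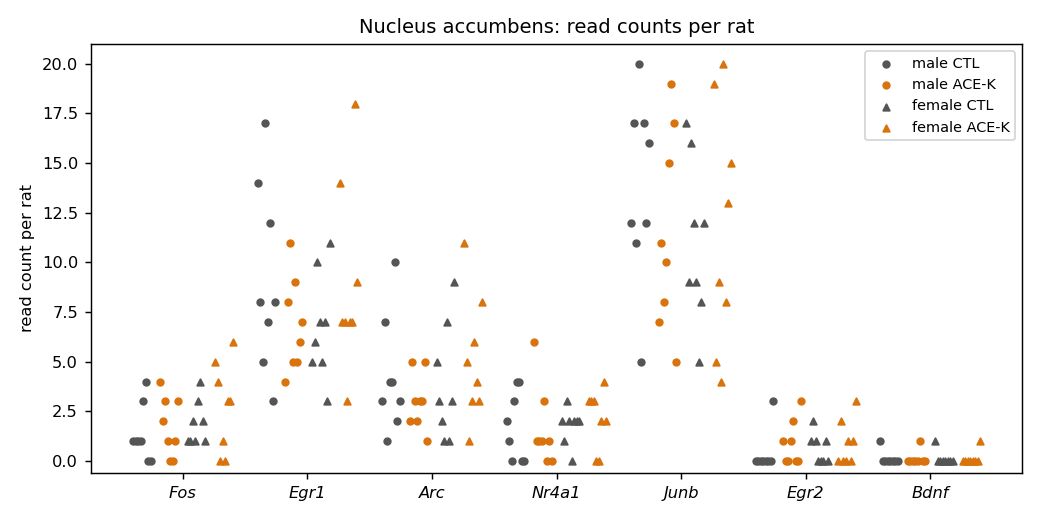
Read counts per rat of the 7 genes in the ACB (y axis); circles are males, triangles females, grey CTL and orange ACE-K, 8 rats per group. Junb reaches 20 counts and Bdnf has 1 count in 4 rats and 0 in the others.

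ACE-K against CTL in the ACB gave no call for Egr1, Arc or Junb. The study left an ACE-K library of the ACB out as an outlier. Which rat it came from is not given in the sources used here, so that all 8 ACE-K rats of each sex were kept, and each was left out in turn. Egr1 in males lay at 9.64 to 45.04 CPM in CTL rats (median 24.2) and at 11.95 to 30.2 CPM in ACE-K rats (median 19.5). In females it lay at 7.79 to 36.1 CPM (median 19.9) and at 8.57 to 49.3 CPM (median 23.3). The groups overlapped in both sexes, and the point estimates had opposite signs, with log2 fold changes of -0.38 ± 0.29 in males and 0.40 ± 0.29 in females (edgeR adjusted p of 0.975 and 0.775). The difference between the 2 effects was 0.76 ± 0.42 on the log2 scale, with an unadjusted interaction p of 0.0809 and an adjusted p of 0.649.

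Arc gave -0.43 ± 0.41 in males and 0.39 ± 0.41 in females, with a difference of 0.80 ± 0.59 (unadjusted interaction p of 0.182). Leaving out 1 rat at a time moved Arc between -0.58 and -0.186 in males and between 0.163 and 0.697 in females, and Egr1 between -0.496 and -0.227 and between 0.202 and 0.548, with none called. Junb gave -0.21 ± 0.27 and 0.08 ± 0.27. In the tests over all genes, edgeR called 0 of 5262 in males (0%; 232 at an unadjusted p under 0.05) and 2 of 5154 in females (0.0388%), and DESeq2 called 0 in both. With the fold threshold of 0.4 besides an unadjusted p under 0.05, 4.12% and 6.31% of genes passed, against none of the 3. The interaction called 0 of 5950 genes by edgeR (0%; 511 at an unadjusted p under 0.05) and 0 by DESeq2. Female against male CTL rats called 0.0504% of genes and none of the 3.

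Only Junb had a median of at least 10 counts in the ACB, so that its level could be related to that in the HPCd of the same rat. The correlation was r = -0.312 in males (permutation p = 0.268, rho = -0.300 with p = 0.259) and 0.443 in females (permutation p = 0.115, rho = 0.397 with p = 0.142). Without the 2 rats farthest from the HPCd median, r was -0.205 and 0.102. A shared level between the regions was not detectable at this depth.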

How the data were processed

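RNA from punches of the HPCd and ACB of 32 rats was sequenced in bulk. Per the study's methods and the labels, the authors ran FastQC and Trimmomatic on the reads, used STAR for alignment to Rnor6.0 and HTSeq for counts per gene, and deposited these counts without normalization, 1 column per rat. Versions, annotation release and strand setting were not given in the sources used here. Rats were assigned to groups from the labels, and 0 columns lacked a sample. The study's methods removed an ACE-K library of the ACB after principal component analysis without naming it, and every deposited library was used here. The HTSeq summary rows, present for the HPCd only, stayed out of library sizes and tests. The tables hold no symbols; the IDs of the 7 genes came with their symbols in the rule that chose them. Pathway and cell type lists could not be matched to IDs and were not used here.

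A gene was tested if 3 or more rats had a normalized count of 5 or more. The tool was edgeR 4.0.16 (R 4.3.3) after TMM normalization, with its quasi-likelihood test within region and sex, and p-values were adjusted by Benjamini-Hochberg across every tested gene. Interaction and sex contrasts used 1 fit of the 4 groups. DESeq2 1.42.0 served as the alternative tool. CPM are counts relative to the TMM-scaled library size; log2 CPM used a prior count of 2. Correlations and spreads were tested by permutation in Python 3.11.15 with scipy 1.17.1. The edgeR and correlation scripts were tested on simulated data. Within each group, every pair of libraries differed by more than sampling noise (chi-square per degree of freedom at least 4.07 in the HPCd and 1.58 in the ACB, for IDs whose 2 counts summed to 50 or more), so each rat counted as 1 replicate. The 7 genes, the lists and the tests were chosen with earlier results of these data known; the 7 genes are named in every comparison, and of genes most like them at most 2 IDs in each direction. Promoter windows were those of RefSeq on GRCr8; the counts came from another build, and no coordinates were converted.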

Additional observations from a re-analysis of the deposited data

Results flagged for a closer look

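In the HPCd groups of 8 rats, and in the ACB for the 3 genes tested there, the highest and the lowest rat were checked for a gap to the next rat, as a share of the group's range, beyond Dixon's 95% limit for 8 samples. Of 40 gene and group combinations, 5 exceeded it, where chance flags about 1 in 20. That rate holds for independent, normally distributed values, whereas these CPM were not on the log scale and the genes covaried between rats. All 5 were the highest rat of an HPCd group, and all were among the first 2 rat numbers of their sex. In male ACE-K rats, C92 had 10.4 CPM of Egr2 beside 3.24 in the next rat, and 86.0 CPM of Junb beside 54.3. In male CTL rats, C91 had 22.6 CPM of Fos beside 14.6. In female CTL rats, C107 had 28.5 CPM of Fos beside 17.3, and in female ACE-K rats C108 had 9.19 CPM of Egr2 beside 4.96.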

How the results depend on the processing

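No paired analysis was possible because no rat number occurs in both treatments, other than the pairs of neighbouring rats, which the labels do not give. The counts of the 7 genes called for ACE-K against CTL, for the interaction, for sex and for spread stayed at 0 under each alternative run, except that without the female CTL rat C117 Fos had an unadjusted p under 0.05 (0 to 1 genes over the omissions). Log2 fold changes near 0 changed sign: in HPCd males Arc was 0.0109 with total counts only, 0.0423 with rat number as a covariate and 0.0395 with neighbouring rats as a block, and Nr4a1 was -0.00326 by DESeq2, -0.00139 with DESeq2 size factors and -0.00855 with the block. In HPCd females Junb was -0.0174 with total counts, -0.00284 with library number as a covariate and -0.0156 with the block, and Egr2 was 0.00185 with rat number as a covariate. Leaving out 1 rat at a time, HPCd males ranged from -0.15 to 0.15 for Arc, -0.10 to 0.17 for Egr1, -0.50 to 0.43 for Egr2, -0.0914 to 0.24 for Fos, -0.20 to 0.0154 for Junb and -0.17 to 0.14 for Nr4a1. HPCd females ranged from -0.14 to 0.0780 for Arc, -0.0488 to 0.11 for Egr1, -0.39 to 0.14 for Egr2, -0.358 to -0.114 for Fos (lowest without C117, highest without C107), -0.12 to 0.0811 for Junb and -0.22 to 0.0137 for Nr4a1, and Junb in ACB females from -0.11 to 0.22, with no adjusted p under 0.691 in either region. Against rat number in males, DESeq2 called 3 genes where edgeR called 0, and without C91 and C92 Arc was 0.15 and Nr4a1 0.35 per 10 rats. In females, without C107 and C108, 1 gene (Bdnf) rather than 3 had an unadjusted p under 0.05, 0 rather than 2 were lower and Arc was 0.13. Omitting 1 rat left 1 to 3 lower, with 1 without C108. Pairs that covaried fell without the 2 farthest rats from 13 to 6 in males and 13 to 8 in females by Pearson, and from 9 to 5 and 11 to 2 by Spearman. With the trend on rat number removed they were 10 and 11 by Pearson, and 10 and 8 by Spearman. Fewer rats entered the settings that left rats out, whereas all 16 of each sex entered those with the trend removed. The cause of the changes was otherwise not tested. Alternatives with rat number slopes (other than the planned correlation) or with that trend removed, library number, neighbouring rats and the first 2 rats were chosen after seeing the data. Of the 10 genes most like the 7 by Pearson, 5 were among the 10 by Spearman. Depth limits the ACB, where 4 of the 7 genes were not tested.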
